A study of Homo sapiens with 6 samples.

Results

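The genes described here are 33 members of the machinery that makes, takes up and controls cholesterol, out of 57123 genes with counts. They are a list of gene names, not independent of earlier results of these data, and are grouped here by role: 8 enzymes of the mevalonate and isoprenoid arm, 12 enzymes of the sterol arm, 4 genes of sterol regulatory element-binding protein (SREBP) control, 4 genes of sterol transport and esterification, and 5 genes of the liver X receptor (LXR) branch. All 33 had a value, and 32 had enough counts to be tested. SOAT2, which joins cholesterol to fatty acids mainly in liver and intestine, had 7 to 11 counts per library and was not tested.

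RNA of HEK293 cells, a human embryonic kidney line, was sequenced in 3 libraries labelled WT and 3 libraries labelled MUL1(-/-). MUL1 is a mitochondrial E3 ubiquitin ligase, and the MUL1(-/-) cells were made from HEK293 by CRISPR-Cas9 editing. Both genotypes were grown in high-glucose DMEM with fetal calf serum, which brings lipoproteins and thus sterols into the medium, and no treatment separated them. How many clones the MUL1(-/-) libraries came from is not given in the sources used here, so the effect of the genotype and differences between clones cannot be told apart. The study describes its measurements in general as coming from independent experiments, but the labels do not say whether the libraries of a genotype came from separate cultures. If they did not, p-values measure only the spread between these libraries, which may be technical. Counts summed over genes were 134414503, 142803296 and 127015142 in the WT libraries and 122441959, 122305055 and 121917971 in the MUL1(-/-) libraries. Levels are given in CPM, the counts of a gene relative to the library's total, after scaling between libraries, and 1 count was worth 0.00700 to 0.00820 CPM before scaling.

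Cells build cholesterol from acetyl-CoA. The mevalonate arm makes the isoprenoid units that also serve protein prenylation, dolichol and ubiquinone, and the sterol arm joins them to squalene, closes the rings to lanosterol and trims lanosterol to cholesterol. SREBP-2 and SREBP-1, the products of SREBF2 and SREBF1, are made as membrane proteins of the endoplasmic reticulum. When sterols are scarce, SCAP carries them to the Golgi, where proteases release the part that enters the nucleus and drives genes of sterol and fatty acid synthesis. When sterols are plentiful, INSIG proteins hold SCAP back. The LXRs work at the other end, as receptors for oxysterols that drive genes of sterol export.

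A sterol regulatory element is the DNA sequence that SREBPs bind, usually beside boxes for the factors NF-Y and Sp1. RefSeq promoter windows (GRCh38.p14, 250 bases before to 50 after a start) were found for 28 of the members, in 38 windows, and not for ACAT2, SOAT2, FDFT1, ABCG1 and SQLE. The element was searched as TCACNCCAC on both strands, and it was present in 1.13% of all 35116 windows and in 1 member, SREBF2. The NF-Y box CCAAT was present in 34.6% of all windows and in 22 of the 38 member windows (57.9%). The Sp1 box GGGCGG was present in 45.0% of all windows and in 32 member windows, and the E-box CACGTG in 7.26% of all windows and in 6 member windows. By gene, a window with the NF-Y box was found for 12 of 13 members that were lower in MUL1(-/-) cells and for 8 of the 15 other members, beside 39.7% of all 27305 genes with a window. Every one of these 13 lower members, and 13 of the 15 others, had a window with the Sp1 box, beside 48.3% of all genes with a window. A match describes the letters of a window and is not a shown binding site. The sterol element was searched in a single spelling and a short window, so a missing match does not show that a gene lacks it.

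The stretch of SREBF2 is shown because it held the only match to the sterol element, 133 bases before the start, with an NF-Y box 106 bases before the start. Those of INSIG1, HMGCS1, MSMO1 and STARD4 were picked once the values were known. These were among the members that fell most, and their windows held NF-Y boxes close to Sp1 boxes or to each other. IDI1 met the same description, but its stretch is not shown. The stretches shown lie before the annotated genes at chr22:41832960-41833010 (plus strand), chr7:155297698-155297775 (plus strand), chr5:43313513-43313577 (minus strand), chr4:165327479-165327622 (plus strand) and chr5:111512655-111512705 (minus strand). They are written 5′ to 3′ on the strand of the gene, and capitals mark the sterol element, the NF-Y box (CCAAT, or ATTGG when it lies on the other strand) and the Sp1 box; the longer run of capitals in INSIG1 is a pair of overlapping Sp1 boxes.
SREBF2: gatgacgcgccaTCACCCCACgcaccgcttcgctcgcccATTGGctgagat
INSIG1: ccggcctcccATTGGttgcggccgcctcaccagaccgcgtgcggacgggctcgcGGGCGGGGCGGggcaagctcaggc
HMGCS1: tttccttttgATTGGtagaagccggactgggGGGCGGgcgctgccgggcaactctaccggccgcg
MSMO1: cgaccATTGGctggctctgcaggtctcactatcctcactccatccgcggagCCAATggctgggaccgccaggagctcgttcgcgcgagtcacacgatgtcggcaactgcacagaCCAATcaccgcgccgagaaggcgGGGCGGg
STARD4: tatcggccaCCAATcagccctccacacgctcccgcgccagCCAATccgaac

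The edited gene was examined first. MUL1 (chromosome 1, 20499448 to 20508161, minus strand) stood at 15.4, 15.2 and 19.0 CPM in the WT libraries and at 18.7, 16.7 and 19.2 CPM in the libraries labelled MUL1(-/-). The genotypes overlapped, with a log2 fold change of 0.14 (adjusted p = 0.321, SE 0.10, edgeR quasi-likelihood test). The 20 tested genes nearest to it on chromosome 1 had a median log2 fold change of -0.54. A count summed over a gene does not see a small edit in its sequence, so this value cannot tell whether a library carries its label rightly, and the groups are named by their labels throughout.

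The libraries of a genotype differed among themselves in these genes. Medians of the absolute log2 difference were taken over the 31 members with at least 1 CPM in every library. The median was 0.0681 between MUL1(-/-) replicates 1 and 2, but 0.254 and 0.224 between each of them and MUL1(-/-) replicate 3. Over the 14971 tested genes with at least 1 CPM in every library, the same medians were 0.0914, 0.125 and 0.125. MUL1(-/-) replicate 3 was the lowest library of its genotype in 13 of the 16 members called lower, and in 43.0% of 3525 other genes called lower with at least 1 CPM in every library. WT replicate 3 was the lowest WT library in 11 of the 16, and in 56.3% of the same other genes. These counts describe genes already called lower, which a low MUL1(-/-) library helps to call. The log2 ratio of replicate 3 to replicates 1 and 2 had a Pearson r of 0.483 (Spearman rho 0.473) between the genotypes across 31 members and 0.114 across 14971 genes with at least 1 CPM in every library. This is a description across genes, which are not independent replicates, and the libraries of the genotypes are separate samples. The part of replicate 3 in the results was not tested beyond leaving it out. Without MUL1(-/-) replicate 3, the log2 fold changes described below were smaller but kept their direction and call for INSIG1 (-1.20), HMGCS1 (-0.92), IDI1 (-0.89), SQLE (-0.80), STARD4 (-0.56), FDFT1 (-0.54) and MSMO1 (-0.49).

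**Figure D1:**
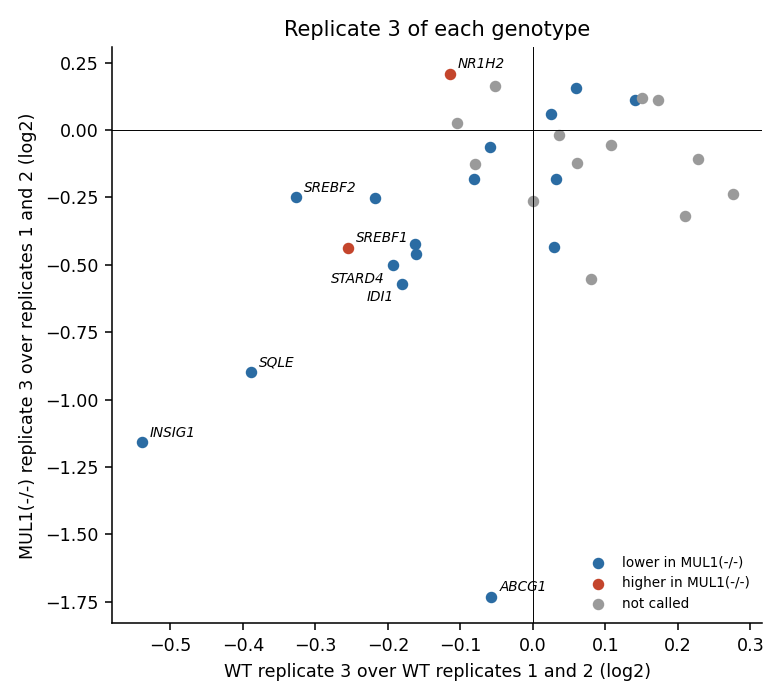
Each point is a member with at least 1 CPM in every library, with the log2 ratio of WT replicate 3 to WT replicates 1 and 2 on the x axis and the same ratio for the MUL1(-/-) libraries on the y axis, coloured by the call between genotypes. INSIG1 and SQLE were low in replicate 3 of both genotypes, and ABCG1 was low in MUL1(-/-) replicate 3 with little difference among the WT libraries.

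Calls of lower expression in the MUL1(-/-) libraries outnumbered those of higher expression among these genes. Of the 32 members tested, 16 were lower (50.0%) and 2 were higher at an adjusted p under 0.05, while 14 were not called. Of all 25125 genes tested, 18.7% were lower and 18.8% were higher. The median log2 fold change of the members was -0.20, and that of all tested genes was -0.01. The values of the genotypes did not overlap in 17 members that were lower and 4 that were higher, beside 48.5% of all tested genes in either direction. The study's thresholds also ask for an absolute log2 fold change above 1, which 8.11% of all tested genes reached, and which 4 members reached, all of them lower (HMGCS1, IDI1, SQLE and INSIG1). Without MUL1(-/-) replicate 3, 15 members were lower and 2 higher, and the number past both thresholds fell to 1 (INSIG1). With library totals in place of the scaling factors, 13 members were lower and 5 higher, beside 3783 and 5871 of all genes, and the number past both thresholds was likewise 1. In bulk RNA, less of a transcript in every cell and fewer cells that hold it cannot be told apart.

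**Figure D2:**
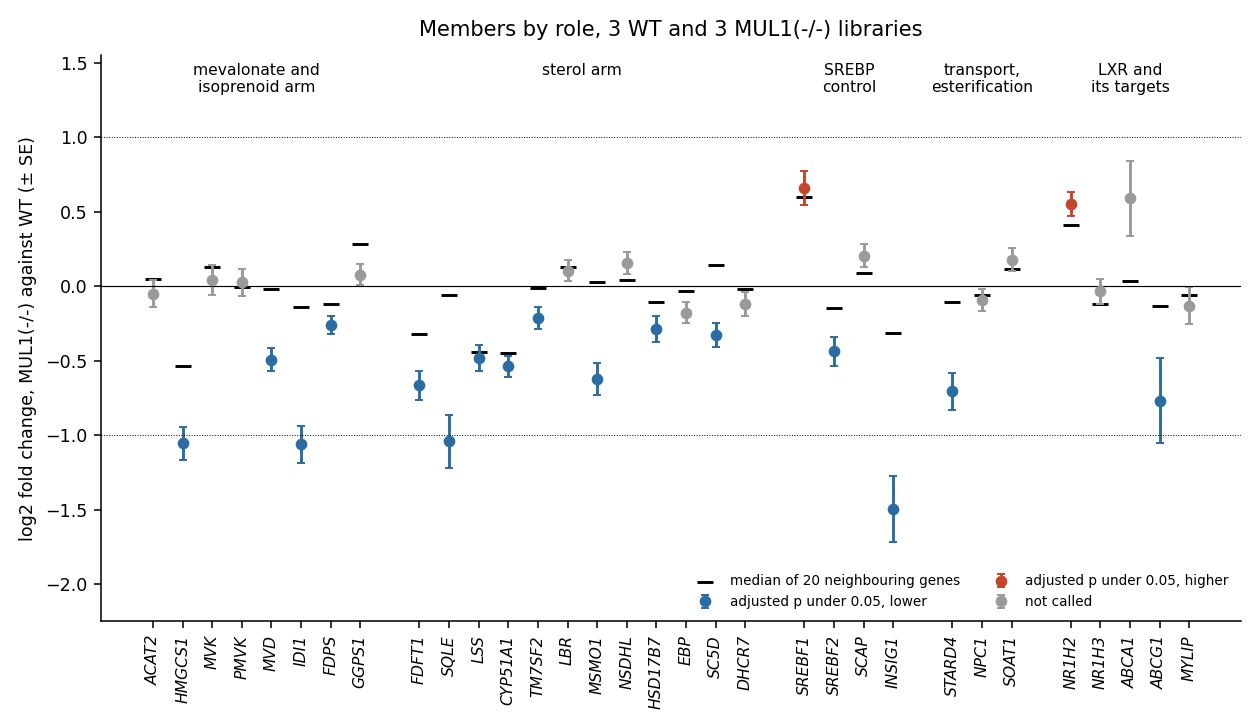
Points give the log2 fold change of the 32 tested members, MUL1(-/-) against WT, with its standard error, in the order of the members' roles, and black bars give the median log2 fold change of the 20 nearest tested genes on the chromosome. Members called lower are blue, with INSIG1 (-1.50) the lowest, and SREBF1 and NR1H2, the members called higher (red), lie close to theirs.

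The genes that surround a member on its chromosome were compared as well, since many genes changed between these libraries. The median log2 fold change of the 20 nearest tested genes was beyond 0.3 in either direction for 7 members. Of the 32 tested members, 24 were below their neighbours' median and 8 above it, with a median difference of -0.12. Over the 20 enzymes of synthesis, the median log2 fold change was -0.27, and -0.16 after the neighbours' median was taken away. These are values with no test.

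Both arms of synthesis held enzymes that fell. Of the 20 enzymes, 12 were lower and 0 were higher at an adjusted p under 0.05 by edgeR, beside 18.7% and 18.8% of all tested genes, and 8 were not called. Their summed level was 2103, 2010 and 2013 CPM in the WT libraries and 1661, 1699 and 1519 CPM in the MUL1(-/-) libraries. All MUL1(-/-) libraries were below all WT libraries, with 2042 ± 52.9 CPM in WT and 1626 ± 94.7 CPM in MUL1(-/-) cells (SD, n = 3), or 79.6% of the WT level. The mevalonate and isoprenoid arm stood at 79.0% of WT and the sterol arm at 80.0%. These sums lean on the most abundant enzymes. FDPS alone gave 360.7 of the 760.3 CPM of its arm in WT, and FDFT1 gave 358.9 of the 1282 CPM of the sterol arm. Single enzymes ranged from 0.48 (IDI1) to 1.11 (NSDHL) of the WT mean.

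**Figure D3:**
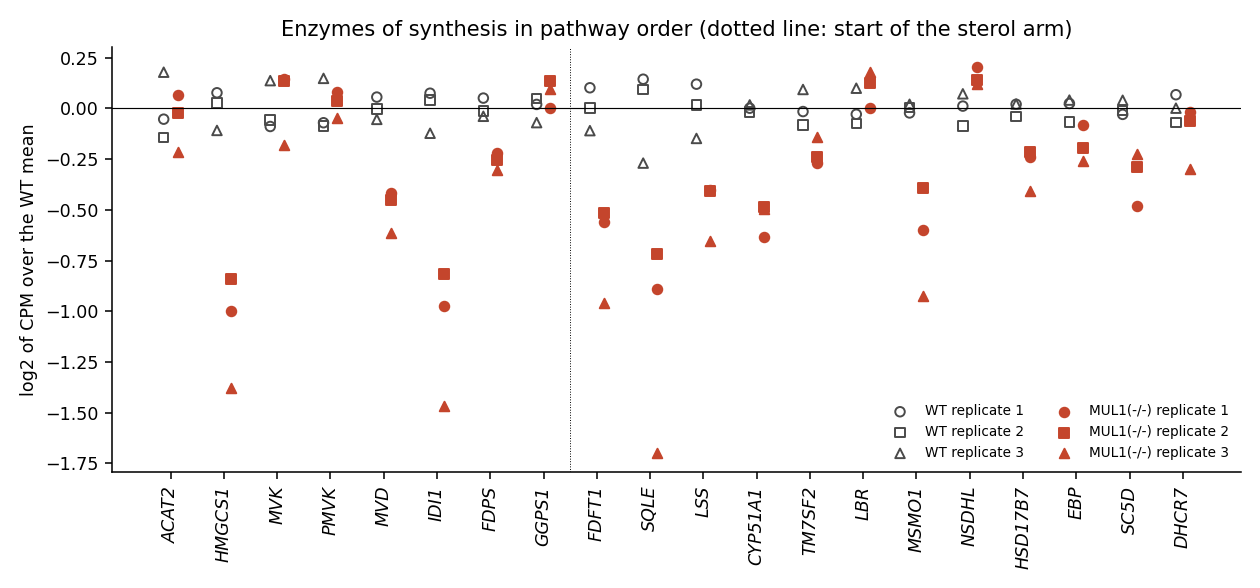
Each library's log2 level relative to the WT mean is plotted for the 20 enzymes of synthesis in pathway order, with open symbols for WT and filled red symbols for MUL1(-/-), and circles, squares and triangles for replicates 1, 2 and 3. HMGCS1, IDI1 and SQLE fell furthest, and MUL1(-/-) replicate 3 was the lowest library in each of them, while MVK, PMVK, GGPS1 and LBR stayed near the WT mean.

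In the mevalonate and isoprenoid arm, 4 of 8 enzymes were lower. HMGCS1 (chromosome 5, 43289395 to 43313512, minus strand), the cytosolic synthase that makes HMG-CoA, stood at 96.3, 93.0 and 84.6 CPM in WT and at 45.7, 51.0 and 35.1 CPM in MUL1(-/-) cells. The libraries were well apart, and all 18 of its exon bins with at least 60 counts were lower without overlap. Bins of a gene, here and below, come from the same libraries and are a description, not independent evidence. Its log2 fold change was -1.05 (adjusted p = 3.01e-06, SE 0.11). Its 20 neighbours were also low, with a median of -0.54, which left -0.52. Bins overlapped by a gene of the other strand gave 29.2% of its counts, and the remaining bins gave -1.02. IDI1 (chromosome 10, 1039908 to 1049170, minus strand), which isomerizes the first isoprenoid unit, stood at 79.9, 78.1 and 69.7 CPM in WT and at 38.6, 43.0 and 27.5 CPM in MUL1(-/-) cells. Again every MUL1(-/-) library was below every WT library, with a log2 fold change of -1.06 (adjusted p = 9.70e-06, SE 0.12), beside -0.14 for its neighbours.

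MVD, which decarboxylates mevalonate diphosphate, stood at 48.9, 46.9 and 45.3 CPM in WT and at 35.2, 34.4 and 30.7 CPM in MUL1(-/-) cells, a log2 fold change of -0.49 (adjusted p = 0.000136, SE 0.08), with its neighbours at -0.02. FDPS makes farnesyl diphosphate, the branch point towards sterols and prenylation. By sums over bins, which may favour genes of many bins, FDPS was the most abundant member per length in WT, at 97.0 CPM per kb of exon. Its drop was small against its level, from 360.7 ± 11.6 to 301.3 ± 8.57 CPM (SD, n = 3; log2 fold change -0.26, adjusted p = 0.0041), its neighbours stood at -0.12, and bins overlapped by a gene of the other strand gave 47.5% of its counts. The other 4 enzymes were not called. ACAT2, the cytosolic thiolase at the entry, had a log2 fold change of -0.05, MVK and PMVK, the kinases of mevalonate, had 0.04 and 0.03, and GGPS1, which extends farnesyl to geranylgeranyl diphosphate, had 0.08. For these genes the libraries of the genotypes overlapped. Bins overlapped by a gene of the other strand gave 34.6% of the counts of ACAT2 and 18.3% of those of MVK. The remaining bins gave -0.10 for ACAT2 and 0.07 for MVK, also not called.

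In the sterol arm, 8 of 12 enzymes were lower. SQLE (chromosome 8, 124998497 to 125022283, plus strand), the squalene epoxidase that is a control point of the sterol arm, stood at 99.8, 96.3 and 74.9 CPM in WT and at 48.8, 54.9 and 27.8 CPM in MUL1(-/-) cells. Replicate 3 was the lowest library in each genotype, and the genotypes did not overlap. The log2 fold change was -1.04 (adjusted p = 0.000306, SE 0.18), and its neighbours stood at -0.06. FDFT1, the squalene synthase that commits farnesyl units to sterols, stood at 385.0, 359.3 and 332.5 CPM in WT and at 243.4, 250.6 and 184.3 CPM in MUL1(-/-) cells. Its log2 fold change was -0.67 (adjusted p = 9.18e-05, SE 0.10), with -0.32 for its neighbours.

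MSMO1, which starts the removal of the methyl groups at the fourth carbon of the sterol, was even among the WT libraries, at 30.3, 30.8 and 31.2 CPM, and lower in all MUL1(-/-) libraries, at 20.3, 23.4 and 16.2 CPM. Its log2 fold change was -0.62 (adjusted p = 0.000346, SE 0.11), while its neighbours stood at 0.02. CYP51A1, the lanosterol demethylase, stood at 82.9, 81.9 and 83.9 CPM in WT and at 53.4, 59.2 and 58.7 CPM in MUL1(-/-) cells (log2 fold change -0.54, SE 0.07, adjusted p = 2.34e-05). LSS, which closes the rings to lanosterol, stood at 89.5, 83.4 and 74.4 CPM in WT and at 62.4, 62.2 and 52.3 CPM in MUL1(-/-) cells (log2 fold change -0.48, SE 0.09, adjusted p = 0.000477). For both of these enzymes the surrounding genes were nearly as low, at -0.45 each, and the remainder was -0.09 for CYP51A1 and -0.04 for LSS.

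SC5D, the desaturase that sets the double bond at carbon 5, fell from 41.6 ± 1.04 to 33.1 ± 2.98 CPM (SD, n = 3; log2 fold change -0.33, adjusted p = 0.0045), although its neighbours stood at 0.14. HSD17B7, which reduces the ketone left by demethylation, had -0.29 (adjusted p = 0.0176), with its neighbours at -0.11, and TM7SF2, a sterol reductase, had -0.22 (adjusted p = 0.0327), with its neighbours at -0.01. These calls were less firm, since HSD17B7 lost its call in 4 and TM7SF2 in 7 of 17 alternative analyses, among them fits without single libraries of either genotype. The 4 enzymes that were not called were LBR, the sterol reductase that is also the lamin B receptor (0.10), NSDHL (0.16), which takes part in demethylation, EBP (-0.18, adjusted p = 0.0572), the sterol isomerase, and DHCR7 (-0.12), the enzyme of a last step. LBR and EBP were nevertheless abundant, at 52.4 and 48.8 CPM per kb in WT, the third and the fourth of the 33 members by the same sums over bins.

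Of the genes that control SREBPs, INSIG1 and SREBF2 fell and SREBF1 rose. INSIG1 (chromosome 7, 155297776 to 155310235, plus strand), which retains SCAP in the endoplasmic reticulum and is itself an SREBP target, stood at 146.2, 139.7 and 98.4 CPM in WT and at 54.4, 57.0 and 24.9 CPM in MUL1(-/-) cells. It changed the most of all members, with the genotypes apart in each of the 18 exon bins with at least 60 counts and replicate 3 the lowest in each genotype. The log2 fold change was -1.50 (adjusted p = 9.46e-05, SE 0.22), a level 2.82-fold lower, with -0.32 for its neighbours. It ranged from -1.68 to -1.20 over 17 alternatives and was called in all of them. SREBF2 (chromosome 22, 41833079 to 41907308, plus strand), whose promoter stretch is shown above, stood at 169.3, 158.7 and 130.7 CPM in WT and at 120.7, 117.5 and 100.2 CPM in MUL1(-/-) cells. The highest MUL1(-/-) library was below the lowest WT library, and the log2 fold change was -0.44 (adjusted p = 0.00193, SE 0.09), with its neighbours at -0.15.

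SREBF1 (chromosome 17, 17810399 to 17837002, minus strand) moved the other way, from 50.5, 45.8 and 40.4 CPM in WT to 82.4, 75.1 and 58.1 CPM in MUL1(-/-) cells. The genotypes did not overlap, and 64 of its 67 exon bins with at least 60 counts were higher. The log2 fold change was 0.66 (adjusted p = 0.000304, SE 0.11), but its 20 neighbours on chromosome 17 stood at 0.60, so that the remainder was 0.06. SCAP had 0.20 (adjusted p = 0.0520, SE 0.08), from 101.4, 87.7 and 91.2 CPM in WT to 107.8, 99.2 and 115.9 CPM in MUL1(-/-) cells. The genotypes overlapped, yet SCAP was called higher in 9 of the 17 alternatives.

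SREBF1 has a pair of promoters whose first exons mark SREBP-1a (upstream) and SREBP-1c (downstream), and it was asked whether their use differed. The upstream first exon (17836727 to 17837002) held 178, 183 and 162 counts in WT and 308, 237 and 216 in MUL1(-/-) cells. The downstream one (17823518 to 17823618) held only 25, 34 and 19 counts, and 32, 47 and 23. As a share of all SREBF1 counts, the upstream exon had 2.93% ± 0.225 in WT and 2.83% ± 0.264 in MUL1(-/-) cells (SD, n = 3; exact two-sided permutation test, p = 0.6). The downstream exon had 0.429% ± 0.0832 and 0.376% ± 0.108 (p = 0.5, n = 3, same exact test). The smallest p that 3 against 3 libraries allow is 0.1. Of the counts in both first exons, the upstream exon held 87.2% ± 2.62 in WT and 88.1% ± 4.06 in MUL1(-/-) cells. The upstream exon is the longer of the pair, and per base its share was 71.4% ± 4.76 in WT and 73.4% ± 7.40 in MUL1(-/-) cells (SD, n = 3). With 3 libraries a genotype, the exact test could not have called a difference.

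**Figure D4:**
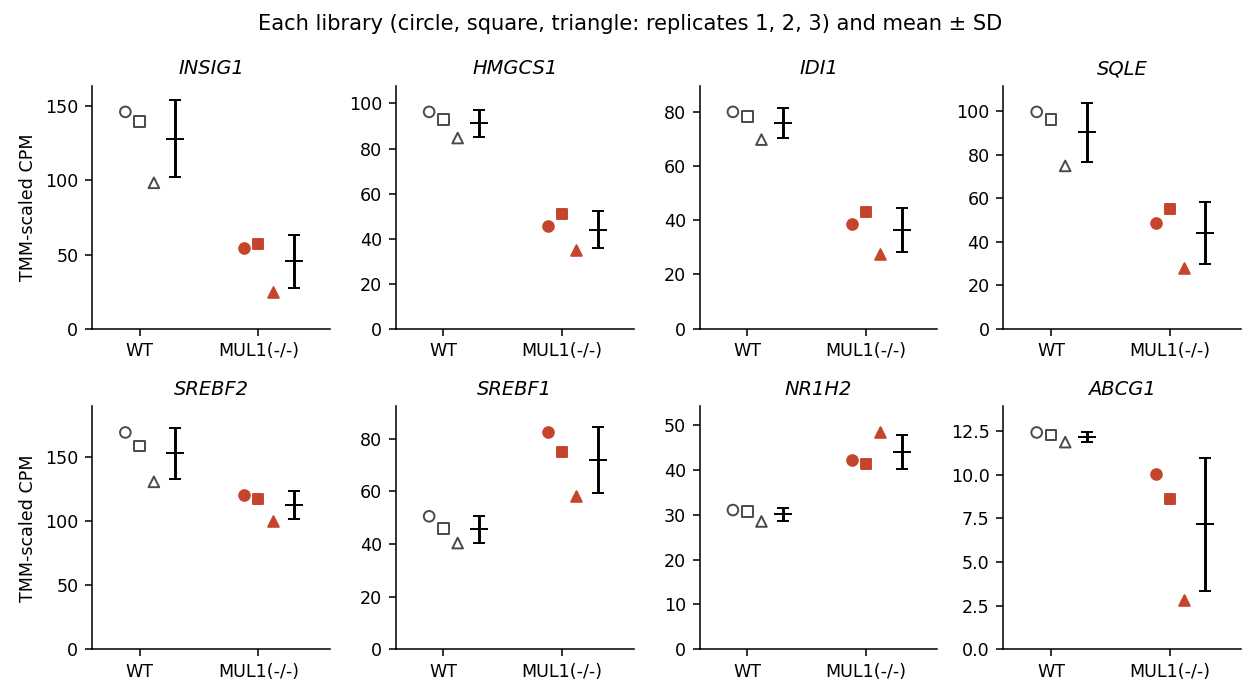
Scaled CPM of each library (circle, square and triangle for replicates 1, 2 and 3) and the mean ± SD (n = 3) of each genotype are plotted for 8 members on axes that start at 0. All 8 were picked from the called members, so their lack of overlap is not a separate result, and 48.5% of all tested genes did not overlap. INSIG1, HMGCS1, IDI1, SQLE, SREBF2 and ABCG1 were lower and SREBF1 and NR1H2 higher in MUL1(-/-) cells.

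Among the genes of sterol transport and esterification, only STARD4 was called. STARD4 (chromosome 5, 111496033 to 111512590, minus strand), a soluble carrier of cholesterol between membranes and an SREBP target, stood at 33.2, 32.1 and 28.5 CPM in WT and at 19.4, 23.1 and 15.0 CPM in MUL1(-/-) cells. The libraries did not overlap, with a log2 fold change of -0.71 (adjusted p = 0.000353, SE 0.12), beside -0.11 for its neighbours. NPC1, which lets cholesterol out of lysosomes, had -0.09, and SOAT1, the esterifying enzyme of most tissues, had 0.18 (adjusted p = 0.0855). Bins overlapped by a gene of the other strand gave 15.4% of the counts of NPC1, and its remaining bins gave -0.11. SOAT2 lay between 0.0551 and 0.0879 CPM in all libraries.

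In the LXR branch, NR1H2 rose and ABCG1 fell. NR1H2 (chromosome 19, 50329653 to 50382982, plus strand), which encodes LXR beta, stood at 31.1, 30.7 and 28.5 CPM in WT and at 42.3, 41.4 and 48.4 CPM in MUL1(-/-) cells. All 25 of its exon bins with at least 60 counts were higher, and the log2 fold change was 0.55 (adjusted p = 8.30e-05, SE 0.08). Its neighbours were also high, at 0.41, which left 0.14. NR1H3, which encodes LXR alpha, had -0.03, with 14.1% of its counts in bins overlapped by a gene of the other strand. The most counted NR1H3 bin alone gave 0.73 and a call (adjusted p = 0.0031, edgeR). The 2 overlapped bins went from 1.98 ± 0.318 to 3.29 ± 0.857 CPM, while the other 79 went from 16.8 ± 1.03 to 15.0 ± 1.01 CPM (SD, n = 3).

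ABCG1 (chromosome 21, 42199689 to 42297244, plus strand), an LXR target that exports cholesterol to lipoproteins, was even among the WT libraries, at 12.4, 12.3 and 11.9 CPM, and spread in the MUL1(-/-) libraries, at 10.0, 8.63 and 2.81 CPM. Replicate 3 was far below the other MUL1(-/-) libraries, and it was the lowest library in all 19 exon bins with at least 60 counts. The log2 fold change was -0.77 (adjusted p = 0.0456, SE 0.28), and DESeq2 gave an adjusted p of 0.258. ABCG1 was called in 10 of the 17 alternatives, with log2 fold changes from -1.08 to -0.39, the last without MUL1(-/-) replicate 3. ABCA1, the other LXR-driven exporter, had only 29 to 48 counts per library. It stood at 0.228, 0.219 and 0.270 CPM in WT and at 0.340, 0.352 and 0.387 CPM in MUL1(-/-) cells, without overlap but not called (0.59, SE 0.25, adjusted p = 0.0778). MYLIP, the LXR target that marks lipoprotein receptors for degradation, had -0.13 (adjusted p = 0.441).

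The related genes outside the 33 members moved in both directions, and their counts are to be read beside the 18.8% of all tested genes that were higher and the 18.7% that were lower. Of 10 genes that process or degrade SREBP and its partners, 3 were higher and 1 lower, with a median log2 fold change of 0.11. RNF145, a ubiquitin ligase of SCAP, had 0.34, and MBTPS2, the second protease that cuts SREBPs, had 0.31. ERLIN1, a membrane scaffold of the endoplasmic reticulum, had -0.34, with its neighbours at -0.38. Of 14 genes that use isoprenoids, 3 were higher and 3 lower (21.4% each), with a median of 0.13. ICMT, which methylates prenylated proteins, had -0.67 and DHDDS, which makes the dolichol chain, had -0.57, but their neighbours stood at -0.77 and -0.53. ZMPSTE24, a protease of prenylated proteins, had 0.56, with its neighbours at 0.08.

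Of 14 further genes of lipoprotein uptake and sterol transport, 7 were lower (50.0%) and 3 higher (21.4%), with a median of -0.15. VLDLR, a receptor for lipoproteins rich in triglycerides, fell from 24.2, 23.6 and 18.4 CPM in WT to 11.9, 14.4 and 11.3 CPM in MUL1(-/-) cells (log2 fold change -0.82, adjusted p = 5.88e-05), with its neighbours at 0.07. Bins overlapped by a gene of the other strand gave 26.0% of its counts. LIPA, the lysosomal lipase that frees cholesterol from its esters, had -0.53, and STARD3, a sterol carrier of late endosomes, had 0.62. The neighbours of both moved with them, at -0.42 and 0.56.

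Of 11 genes of fatty acid synthesis that SREBPs drive, 4 were lower (36.4%) and 2 higher (18.2%), with a median of -0.16. PNPLA3, a lipid-droplet protein, had -1.04 (adjusted p = 2.98e-05), with its neighbours at 0.13, and ACSS2, which makes acetyl-CoA from acetate, had -0.67, with its neighbours at -0.42. SCD, which puts the double bond into stearate, stood at 211.4, 207.2 and 195.9 CPM in WT and at 139.0, 140.5 and 79.3 CPM in MUL1(-/-) cells. As in several members above, MUL1(-/-) replicate 3 was the lowest library, with a log2 fold change of -0.78 (adjusted p = 0.000861, SE 0.15), beside -0.49 for its neighbours.

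Of 7 partners and further targets of LXR, 3 were lower and 0 higher by edgeR at an adjusted p under 0.05, with a median of -0.29. PLTP, the phospholipid transfer protein, had -0.81, ABCG4, an exporter related to ABCG1, had -0.49, and LPCAT3, which remodels phospholipids, had -0.46. Their neighbours stood at -0.44, -0.04 and -0.08, in that order. Bins overlapped by a gene of the other strand gave 56.4% of the counts of PLTP and 58.5% of those of LPCAT3. Of 6 genes of oxysterol and bile acid synthesis, 4 were tested, and 1 was higher (CYP27A1, 0.47, at about 1 CPM) and 1 lower (HSD3B7, -0.66). The neighbours of CYP27A1 stood at 0.10 and those of HSD3B7 at -0.43. The bins of HSD3B7 overlapped a gene of the other strand for 99.6% of its counts, so its reads may not be separable from that gene's.

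**Figure D5:**
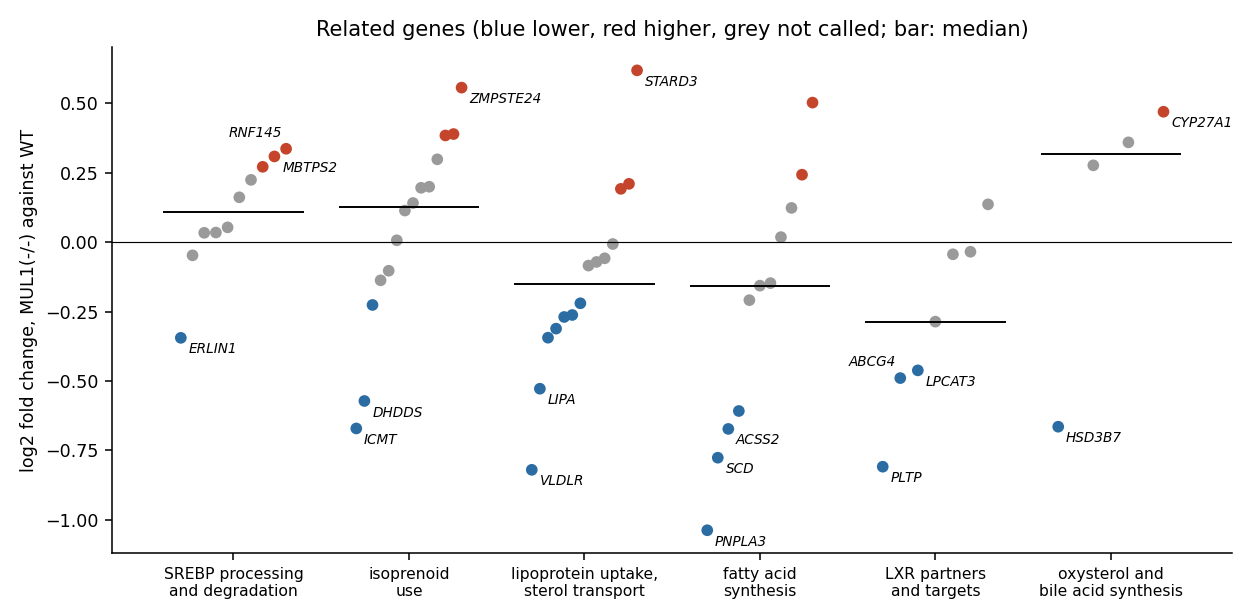
Points are the log2 fold changes, MUL1(-/-) against WT, of the tested genes of the 6 related lists, blue for lower, red for higher and grey for not called, and the bar is the median of each list. The named genes are the up to 3 called genes of each list with the largest change, and every list held genes on both sides of 0.

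Markers of the cell type were also compared. Of 5 kidney and epithelial markers, SALL1 and KRT18 had log2 fold changes of -0.03 and 0.01, while PAX2 (-1.80), KRT8 (-0.93) and LHX1 (-0.55) were lower. Of 3 neuronal filament genes known in HEK293 cells, NEFM was higher (1.06), and NEFL (-0.30) and INA (-0.02) were not called. Of the genes of other cells, those of hepatocytes were near 0, with ALB at 0.0707 to 0.264 CPM and CYP7A1 at up to 0.0635 CPM. PTPRC, of leukocytes, went from 0.165, 0.0566 and 0.0635 CPM to 0.292, 0.415 and 0.387 CPM, and PECAM1, of endothelium, from 0.00787, 0.0919 and 0.0556 CPM to 0.277, 0.176 and 0.218 CPM. Of the fibroblast genes, DCN was higher, from 1.20, 1.22 and 1.14 CPM to 2.72, 2.61 and 3.42 CPM, and COL1A1, which was well above the others, was lower, from 21.3, 24.7 and 19.8 CPM to 18.8, 15.0 and 16.6 CPM (log2 fold change -0.39). Whether the change in these markers bears on the cholesterol genes was not tested.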

How the data were processed

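The authors deposited 1 table of raw, unnormalized read counts by exon bin for every library. The submitters' processing notes name Trimmomatic 0.36, STAR 2.5.2b and GRCh38, and the counting program and annotation release are not given in the sources used here. Each table held 597973 bins under 54848 identifiers. The bins of a gene were summed, and bins of joined identifiers were given to the gene with a same-strand GENCODE 29 exon. Bins of several joined genes (15566) or of none (376) were left out, with 4.37% of the counts. The counting rule is likewise not given. If a read counted in every bin it touched, sums exceed the number of reads. If strand was not used, genes on opposite strands share reads. Of the genes named above, TM7SF2, CYP51A1, ERLIN1, MBTPS2 and PNPLA3 came from joined identifiers. Some unnamed genes that use isoprenoids did so too. Levels below 3 counts (0.0210 to 0.0246 CPM) are not told from absent, which covers counting error only.

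Genes were tested with edgeR 4.0.16 (TMM, filterByExpr, quasi-likelihood test, Benjamini-Hochberg over 25125 genes) in R 4.3.3. The script was tested on simulated data. Adjusted p-values in the text come from it unless DESeq2 is named. DESeq2 1.42.0 and limma 3.58.1 were alternatives. Tables used Python 3.11.15, pandas 2.3.3 and scipy 1.17.1, and figures used matplotlib 3.10.9. Between replicates of a genotype, the chi-square per degree of freedom was 2.95 to 10.8 on the most counted bin of each gene. Sampling noise alone would give about 1. Every library was kept as 1 sample. The text names MUL1, all members, the 3 largest called changes of each related list and the markers. Members and lists were chosen with earlier results of these data known. Other genes of the pathway were not analysed here.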

Additional observations from a re-analysis of the deposited data

How the results depend on the processing

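Under 17 alternative analyses (DESeq2, limma-voom, RLE factors, library totals, 2 other filters on low counts, the replicate block, 3 other gene counts, each library left out in turn, and, chosen after seeing the data, replicate 3 of both genotypes left out), 15 of the 18 called members kept their call throughout and no called member changed direction. TM7SF2, HSD17B7 and ABCG1 lost it in some. The number of higher members was 5 with library totals, 4 with a minimum of 1 CPM in 3 samples, 4 with the most counted bin and 5 without replicate 3 of both genotypes. The number past both thresholds was 1 with library totals and 1 without replicate 3 of both genotypes. Leaving out each library in turn gave 2 to 3 higher members, 13 to 16 lower ones and 1 to 5 past both thresholds, with 1 only without MUL1(-/-) replicate 3. Without replicate 3 of both genotypes, MUL1 had a log2 fold change of 0.21 (adjusted p = 0.0410, edgeR), and 3 members gained a call (MVK, NSDHL and SOAT1).

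Direction changed only in members that were not called in the reported analysis. ACAT2 had 0.018 with library totals, 0.12 with the most counted bin and 0.12 without replicate 3 of both genotypes. With the most counted bin, MVK had -0.081, LBR -0.014 and NR1H3 0.73 (called higher). NR1H3 had 0.037 with library totals, and MYLIP had 0.055 without replicate 3 of both genotypes. With single libraries left out, ACAT2 ranged from -0.12 to 0.042, MVK from -0.0041 to 0.14, PMVK from -0.021 to 0.10 and MYLIP from -0.21 to 0.030.

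The share of SREBF1 counts in the upstream first exon was lower by 0.10 points in MUL1(-/-) cells (-0.10), and higher by 0.97 points when only first-exon counts were the denominator. It ranged from -0.19 to 0.050 with single libraries left out. The downstream share ranged from -0.12 to -0.0059.

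Over all 25125 tested genes, same-numbered libraries did not deviate together (r = -0.15, -0.01 and 0.02), so the numbers were not taken as pairs, although replicate 3 of both genotypes was low in several members, as given above. With the replicate block, 3 members were higher, 16 lower and 4 past both thresholds, and SCAP gained a call (log2 fold change 0.20, adjusted p = 0.0425, edgeR). SOAT2 and ABCA1 had few counts at the depth of these libraries, and no cause of a change between alternatives was tested.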
